A study of Homo sapiens with 6 samples.

Results

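Granins and the proteins that travel with them in neurosecretory vesicles were followed in a human cell line labelled BE(2)-C, a neuroblastoma line, with and without a hairpin against ACSS2. The members are 9 genes, picked by symbol out of the 58735 features of the count table: CHGA, CHGB, SCG2, SCG3, SCG5, VGF, PCSK1N, CPE and SYP. All 9 symbols were found once each. In 8 of them the counts were high enough for a test, and SCG2 was below the count filter. RNA sequencing covered 3 libraries of cells infected with lentivirus that carries a short hairpin RNA against ACSS2 (shACSS2, genotype label ACSS2 deficiency) and 3 libraries of cells infected with lentivirus that carries a non-silencing hairpin (NS, genotype label Wildtype). Both lines were stable lines obtained under puromycin, so infection and drug selection are common to both groups. The labels do not give the number of clones, the hairpin sequence or say that the libraries are of separate cultures, so the spread that the p-values rest on may be technical. The titles write siACSS2 and 1 phrase of the treatment text writes shNgBR, and that conflict was not settled.

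Granins are acidic proteins that aggregate in the trans-Golgi network and load into dense-core vesicles, the storage granules of neuroendocrine cells and neurons. Proteases of the prohormone convertase family and carboxypeptidase E cut granins and prohormones into peptides inside those vesicles, and calcium triggers their release. Chromogranin A is a serum and tissue marker of neuroendocrine tumours, neuroblastoma among them, and synaptophysin is used beside it in histology.

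The libraries held 16617885 to 18133801 counts in shACSS2 and 17073662 to 20831599 counts in NS. The targeted gene ACSS2 had 75, 84 and 110 counts in shACSS2, against 366, 387 and 438 counts in NS (log2 fold change −1.94, standard error 0.145, edgeR quasi-likelihood test with Benjamini-Hochberg adjusted p = 1.95e-06). Permuting the libraries exactly (two-sided) gave p = 0.1 for its level, which is as small as groups of 3 can give. Of the defining genes of the labelled cell type PHOX2A, TH and TFAP2B had 0 counts in every library, where 3 counts would be 0.144 to 0.181 per 1000000 counts of a library. Levels are given below as such counts scaled by TMM composition factors (CPM). Of 15 sympathoadrenal and adrenergic markers, 7 could be tested, of which 4 rose and 1 fell in edgeR and in limma voom. In DESeq2 3 of them were called higher and 0 lower. The summed level of the 15 markers ran from 100.4 to 123.3 CPM in shACSS2 and from 85.9 to 91.3 CPM in NS. Schwann cell markers summed to 30.9 to 34.1 CPM in shACSS2 and 30.0 to 34.8 CPM in NS, and embryonic kidney markers to 170.9 to 194.1 CPM in shACSS2 and 186.3 to 191.9 CPM in NS, with 0 markers called in either list by edgeR, DESeq2 or limma voom (at an unadjusted p under 0.05 in edgeR, 0 of 2 Schwann cell and 2 of 7 kidney markers, 1 in each direction). Mesenchymal and fibroblast markers summed to 114.0 to 134.7 CPM in shACSS2 and 121.3 to 136.1 CPM in NS (2 of 10 tested rose and 1 fell), and endothelial and blood markers stayed under 0.6 CPM in sum. Of all genes tested 17.1% were called, so 0 calls among 2 Schwann cell and 7 kidney markers are no result about those lists. The part of all these markers in the results below was not tested.

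Of the tested members 4 fell in shACSS2: chromogranin A (CHGA), chromogranin B (CHGB), secretogranin III (SCG3) and synaptophysin (SYP). CPE, the carboxypeptidase, rose slightly, and the other 3 tested members did not pass the test. Thus 5 of 8 members were called, and among all 16210 genes tested 17.1% were called in either direction. Lower calls made up 4 of 8 members and 9.64% of all genes, and higher calls 1 of 8 members and 7.48% of all genes. The CPM ranges of the groups did not overlap for 6 of 8 members and for 36.3% of all genes. The median log2 fold change was −0.69 over the tested members and 0.00 over all genes. CHGA passed the count filter only through NS, where it was higher. The members were also chosen with earlier results of these data known. Since SCG2 is left out and 9 genes are few, these figures describe the members only. Over all genes 1213 were higher and 1563 lower, and with library totals in place of TMM composition factors 734 were higher and 2108 lower. The count of all called genes was 1018 when NS replicate 1 was left out and 1151 when NS replicate 3 was. The count of called members was 3 in each of the fits that left out NS replicate 1, NS replicate 3 or shACSS2 replicate 3. In RNA from whole cultures, fewer cells that express a gene and less of its RNA per cell cannot be told apart.

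Seen per length of annotated exon, the members span a wide range of levels, with PCSK1N and CPE far above the rest and CHGA and CHGB near the low end. PCSK1N, which encodes proSAAS, a granin-like inhibitor of prohormone convertase 1, had the highest level, at 63.1 CPM per kilobase in shACSS2 and 63.2 CPM per kilobase in NS. CPE followed at 34.6 CPM per kilobase in shACSS2 and 27.6 CPM per kilobase in NS. By mean level PCSK1N exceeded 96.1% and CPE 91.0% of the tested genes, while SYP exceeded 58.6%, SCG5 48.5%, SCG3 32.9%, VGF 18.3%, CHGA 9.54% and CHGB 8.30%. In shACSS2 the order was PCSK1N, CPE, SCG5, SYP, SCG3, VGF, CHGB, CHGA and SCG2. In NS the order was PCSK1N, CPE, SYP, SCG5, SCG3, VGF, CHGA, CHGB and SCG2. In shACSS2, SCG5 (4.12 to 5.07 CPM per kilobase) and SYP (3.29 to 4.93 CPM per kilobase) overlapped, as did CHGB (0.192 to 0.296 CPM per kilobase) and CHGA (0.1002 to 0.252 CPM per kilobase). In NS, only VGF (0.702 to 1.23 CPM per kilobase) and CHGA (0.531 to 0.731 CPM per kilobase) overlapped among neighbours in the order. Counts of CPE and PCSK1N together made up 81.1% to 84.7% of the members' counts in shACSS2 and 71.4% to 73.6% in NS.

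**Figure D1:**
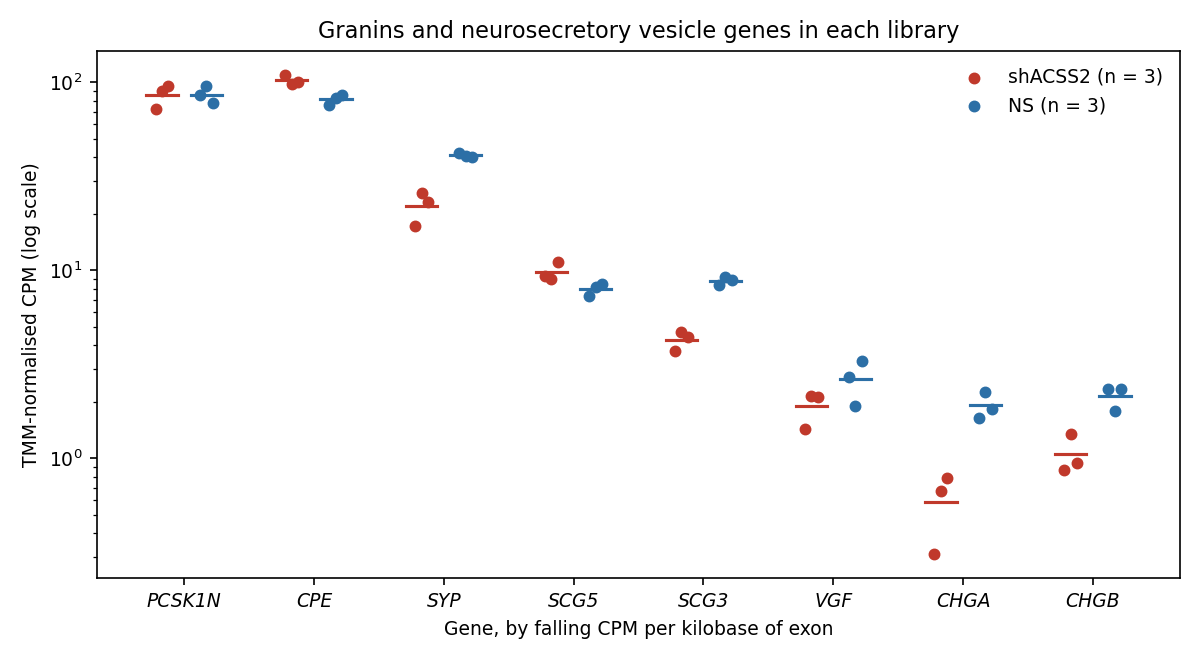
TMM-normalised CPM (log axis) of the 8 tested members in each library, ordered by falling CPM per kilobase of exon, with a bar at the mean of each group (n = 3). The shACSS2 libraries of SYP, SCG3, CHGA and CHGB all lie under the NS libraries, those of CPE and SCG5 lie above them, and the groups overlap for PCSK1N and VGF. SCG2 is not drawn because it was below the count filter.

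CHGA, the founding granin and a core of dense-core granule formation, showed the largest fall of the members. The gene lies on chromosome 14 from 92923080 to 92935293, plus strand, in GENCODE v29 coordinates of GRCh38, as do all gene positions given here. It had 5, 11 and 14 counts in shACSS2, against 29, 43 and 40 counts in NS, so every shACSS2 library lay under every NS library. Its level was 0.589 ± 0.247 CPM in shACSS2 and 1.92 ± 0.318 CPM in NS (SD, n = 3 each). The log2 fold change was −1.68 (standard error 0.381, edgeR adjusted p = 0.00798), a level 3.21-fold lower in shACSS2. The call held with each library left out, at log2 fold changes from −1.95 to −1.39. The gene passed the count filter only through NS, the group where it was higher. Without a count filter its log2 fold change was −1.68 (edgeR adjusted p = 0.00119). At 5 to 43 counts a library, the fold is known only to within a 95% interval of −2.43 to −0.94 on the log2 scale.

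CHGB, whose product is the second major granin of chromaffin granules, lies on chromosome 20 from 5911430 to 5925361, plus strand. It had 14, 22 and 17 counts in shACSS2, against 41, 34 and 51 counts in NS, again with no overlap. The log2 fold change was −1.03 (standard error 0.318, edgeR adjusted p = 0.0366), with 1.05 ± 0.253 CPM in shACSS2 and 2.16 ± 0.315 CPM in NS (SD, n = 3 each). The call of CHGB was the least secure of the falls. It ended without NS replicate 1 (−0.98, edgeR adjusted p = 0.127), without NS replicate 3 (−0.96, edgeR adjusted p = 0.129), without shACSS2 replicate 1 (−0.91, edgeR adjusted p = 0.0711) and without shACSS2 replicate 3 (−0.96, edgeR adjusted p = 0.0973).

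SCG3 encodes secretogranin III, which binds chromogranin A and cholesterol and helps to carry granins to the vesicle membrane. It lies on chromosome 15 from 51681353 to 51721031, plus strand. SCG3 had 60, 77 and 79 counts in shACSS2, against 147, 175 and 194 counts in NS. The highest shACSS2 library thus lay far under the lowest NS library. Its level was 4.28 ± 0.499 CPM in shACSS2 and 8.84 ± 0.446 CPM in NS (SD, n = 3 each; log2 fold change −1.04, standard error 0.17, edgeR adjusted p = 0.000993). With 1 library left out the log2 fold change ran from −1.11 to −0.95 and the call held each time. Both genes annotated on the opposite strand within SCG3 had 0 counts in all libraries.

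SCG2, the precursor of secretoneurin, was close to undetected. It lies on chromosome 2 from 223596940 to 223602503, minus strand. It had 3, 0 and 0 counts in shACSS2 and 2, 1 and 8 counts in NS, at or near the limit of what these depths can show. No fold is given for it.

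VGF, the nerve growth factor-inducible precursor of several secreted peptides, lies on chromosome 7 from 101162509 to 101165593, minus strand. It had 23, 35 and 38 counts in shACSS2, against 48, 36 and 72 counts in NS. The groups overlapped in level, since NS replicate 2 (1.90 CPM) lay under shACSS2 replicates 2 and 3 (2.14 and 2.13 CPM). The log2 fold change of −0.48 (standard error 0.287, edgeR adjusted p = 0.262) did not pass the test, and its 95% interval of −1.04 to 0.08 includes both no change and a level less than 0.5 times that of NS.

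SCG5 and PCSK1N encode the small chaperones of the prohormone convertases. SCG5 encodes 7B2, the partner of prohormone convertase 2, and lies on chromosome 15 from 32641676 to 32697098, plus strand. It had 150, 148 and 199 counts in shACSS2 and 129, 155 and 185 counts in NS. After scaling, its 9.83 ± 1.13 CPM in shACSS2 stood above 8.01 ± 0.610 CPM in NS with no overlap, but the log2 fold change of 0.30 (standard error 0.153, edgeR adjusted p = 0.196) did not pass the test. PCSK1N lies on chromosome X from 48831094 to 48835633, minus strand. It had 1166, 1476 and 1705 counts in shACSS2 and 1506, 1811 and 1682 counts in NS. Its level was 86.0 ± 12 CPM in shACSS2 and 86.2 ± 9.08 CPM in NS (SD, n = 3 each), and the groups overlapped throughout. The log2 fold change was −0.00 (standard error 0.116, edgeR adjusted p = 0.990), with a 95% interval of −0.23 to 0.23.

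CPE, carboxypeptidase E, trims basic residues off peptide ends after the convertases have cut, and has also been described as a sorting receptor of the regulated pathway. It lies on chromosome 4 from 165361194 to 165498320, plus strand. CPE had 1767, 1596 and 1789 counts in shACSS2 and 1337, 1573 and 1865 counts in NS. The counts overlap, while the scaled levels do not, at 109.9, 97.5 and 100.1 CPM in shACSS2 and 76.0, 83.0 and 85.8 CPM in NS. The log2 fold change was 0.33 (standard error 0.0968, edgeR adjusted p = 0.0298). The call ended with library totals (0.25, edgeR adjusted p = 0.0791). It also ended without NS replicate 1 (0.27, edgeR adjusted p = 0.18), NS replicate 2 (0.34, edgeR adjusted p = 0.0602), NS replicate 3 (0.36, edgeR adjusted p = 0.0675) or shACSS2 replicate 3 (0.35, edgeR adjusted p = 0.066).

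SYP encodes synaptophysin, a membrane protein of small synaptic-like vesicles that binds the vesicle SNARE synaptobrevin. It lies on chromosome X from 49187804 to 49200259, minus strand. SYP had 276, 421 and 415 counts in shACSS2, against 744, 771 and 870 counts in NS. The NS libraries were close together at 40.0 to 42.3 CPM, and the shACSS2 libraries were lower and more spread at 17.2 to 25.7 CPM. The log2 fold change was −0.90 (standard error 0.133, edgeR adjusted p = 0.000511), with 22 ± 4.39 CPM in shACSS2 and 41.0 ± 1.15 CPM in NS (SD, n = 3 each). It was the member with the smallest p, and its call held with each library left out, at −1.02 to −0.74. The antisense gene SYP-AS1 had 0 counts in every library, and the genes that overlap SCG5 and CPE had at most 6.

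**Figure D2:**
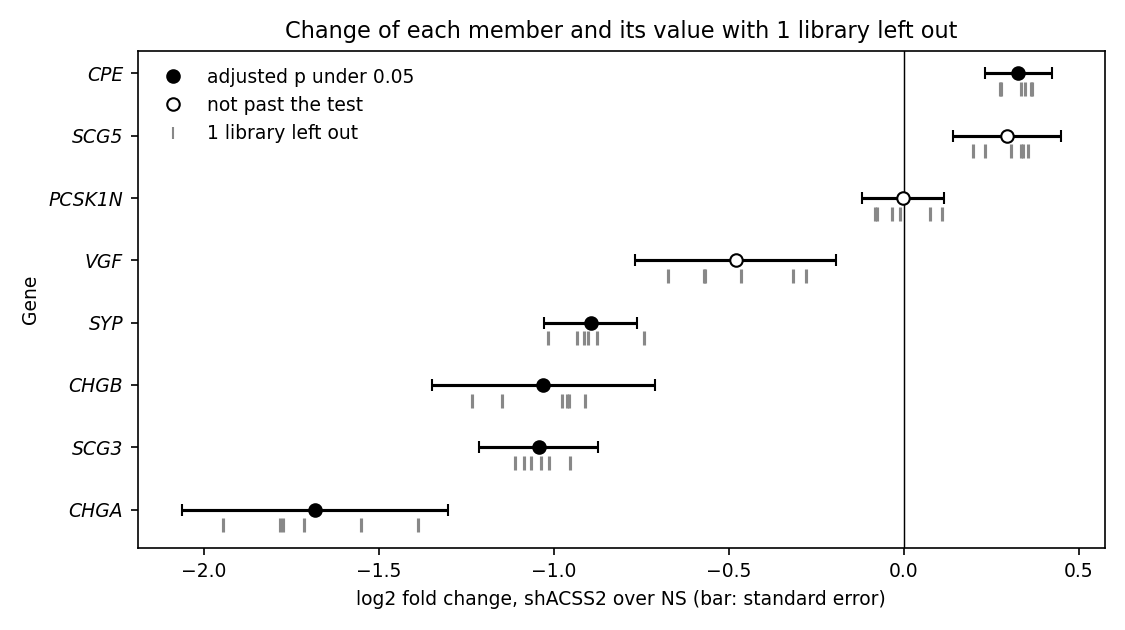
Log2 fold change of shACSS2 over NS for the 8 tested members (circle, with its standard error), filled where the edgeR adjusted p was under 0.05, with ticks for the fits that leave out 1 library each. CHGA, SCG3, CHGB and SYP lie between −1.68 and −0.90 with all their ticks under 0, and the ticks of PCSK1N lie on both sides of 0.

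One shACSS2 library stood apart in base composition, and the members differ widely in that respect. Across all genes (which are not independent replicates), how far shACSS2 replicate 1 lay from the shACSS2 mean had a Spearman correlation with transcript GC content of −0.602, against 0.475 in shACSS2 replicate 2, 0.388 in shACSS2 replicate 3 and −0.0895 to 0.112 in the NS libraries. GC content was 74.5% for PCSK1N, 70.6% for VGF, 62.4% for CHGA and 58.9% for SYP. In shACSS2 replicate 1 the deviation from the shACSS2 mean on the log2 scale was −0.24 for PCSK1N, −0.36 for VGF, −0.67 for CHGA and −0.34 for SYP. GC content was 41.9% for SCG3, 46.5% for SCG5, 47.5% for CPE and 52.3% for CHGB. In the same library these genes deviated by −0.19 for SCG3, −0.07 for SCG5, 0.10 for CPE and −0.23 for CHGB. Of the 8 tested members 7 thus lay under their shACSS2 mean there, and CPE lay above it. The part of GC content in these deviations was not tested. Without that library CHGA was at −1.39 (edgeR adjusted p = 0.0191), SYP at −0.74 (edgeR adjusted p = 6.56e-05) and SCG3 at −0.95 (edgeR adjusted p = 0.00116). With a GC correction of each library, chosen after the data were seen, CHGA was at −1.68, CHGB at −1.03, SCG3 at −1.04 and SYP at −0.89, and the same 5 members were called.

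The stretches before the transcription starts are shown for the falling members present in the RefSeq promoter table (GRCh38.p14), CHGA, SCG3 and SYP, and for VGF, which shares an element with CHGA. Of the 9 members 7 were in that table, which lacked CHGB and SCG2. Each line gives the 250 bases before the start in that table, 5′ to 3′ on the gene's strand. For all genes shown this start lies inside the GENCODE v29 positions given above. Part of each stretch is therefore within the gene as annotated there. Capitals mark TGACG on either strand, the core of the cAMP response element TGACGTCA, to which factors of the CREB and ATF families bind.
CHGA, chr14:92922900-92923149, plus strand: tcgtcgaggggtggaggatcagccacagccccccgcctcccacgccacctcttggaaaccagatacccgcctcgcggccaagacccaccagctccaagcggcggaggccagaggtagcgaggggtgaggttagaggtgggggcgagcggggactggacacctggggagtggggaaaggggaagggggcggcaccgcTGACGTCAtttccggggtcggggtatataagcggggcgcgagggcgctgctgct
VGF, chr7:101165570-101165819, minus strand: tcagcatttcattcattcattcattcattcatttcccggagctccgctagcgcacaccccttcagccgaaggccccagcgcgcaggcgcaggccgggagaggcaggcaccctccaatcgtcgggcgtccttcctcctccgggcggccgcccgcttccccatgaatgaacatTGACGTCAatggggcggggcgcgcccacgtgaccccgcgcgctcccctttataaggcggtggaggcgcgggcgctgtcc
SCG3, chr15:51681253-51681502, plus strand: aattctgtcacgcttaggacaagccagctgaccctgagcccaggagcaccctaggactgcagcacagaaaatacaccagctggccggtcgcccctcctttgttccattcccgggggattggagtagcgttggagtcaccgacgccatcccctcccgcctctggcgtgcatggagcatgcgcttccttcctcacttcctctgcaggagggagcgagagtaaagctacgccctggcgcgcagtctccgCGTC
SYP, chrX:49200194-49200443, minus strand: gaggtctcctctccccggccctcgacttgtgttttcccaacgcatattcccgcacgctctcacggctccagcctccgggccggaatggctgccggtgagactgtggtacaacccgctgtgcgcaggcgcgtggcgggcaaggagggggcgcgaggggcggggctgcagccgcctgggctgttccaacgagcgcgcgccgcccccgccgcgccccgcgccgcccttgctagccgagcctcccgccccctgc

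The full element TGACGTCA began 54 bases before the start in CHGA and 79 bases before it in VGF. It was in 3.22% of the 300-base promoter windows (250 bases before to 50 after the start) of the 11161 tested genes found in the table. The shorter TGACG, which the full element contains on both strands, was in 33.7% of them. Among the members it was also in SCG3, where the match spans the start, in SCG5 and, at 2 places, in CPE. The windows of SYP and PCSK1N held neither. SYP held 4 matches of the Sp1 box GGGCGG, which was in 70.5% of tested promoters. The letters searched for both arms of the REST element were CAGCACC and GGACAGC, on both strands, present in 7.37% and 6.59% of tested promoters. In SCG3 the first began 11 and the second 26 bases after the start, and VGF held only the second. The arms were searched for separately, with no set distance between them, so matches of both need not form the full element. Such matches describe the letters of a window and are no evidence of binding.

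The 3′ UTRs of the members were searched for ATGCTCA or TGCTCAA, letters picked earlier from these same fold changes, so that their share among fallen genes is fixed in part by that choice. They were in the longest annotated 3′ UTR of 576 of 1312 fallen genes (43.9%) and of 17.95% of all 13262 tested genes with such a UTR. They were in 0 of the 8 tested members, CHGA, CHGB, SCG3 and SYP included, which for so few genes is near the share of all genes and is no result about the members. The 3′ UTRs of CHGA and CHGB are short, at 409 and 312 bases, and those of SCG3 and SYP have 1505 and 1483 bases, against a median of 2228 bases over the fallen genes and 1392 bases over all genes, so all 4 falling members lie under the median of the fallen genes. SCG2, which was too scarce to test, holds 1 match.

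Around the members, 7 lists of genes of the same vesicle system and of factors known for their control held 151 other genes, of which 113 were tested. Of these 10 rose and 16 fell, while 87 were not past the threshold, so 23.0% were called against 17.1% of all genes, and their median log2 fold change was −0.02. Over all genes 7.48% rose and 9.64% fell, and the counts of each list below stand beside these shares. The number called was 11 when NS replicate 1 was left out and 15 when NS replicate 3 was, against 26 with all libraries.

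In prohormone processing, 6 of 16 tested genes passed the edgeR test as higher, 2 as lower and 8 did not pass, at a median log2 fold change of 0.21. The list includes CPE, SCG5 and PCSK1N. Carboxypeptidase M, a membrane-anchored relative of CPE, had 15.2 ± 2.02 CPM in shACSS2 and 8.50 ± 0.870 CPM in NS (SD, n = 3 each; log2 fold change 0.84, standard error 0.149, edgeR adjusted p = 0.00185). QPCT, which forms pyroglutamate at peptide ends, had a log2 fold change of 0.55 (standard error 0.133, edgeR adjusted p = 0.0111), a call that ended without NS replicate 1 or NS replicate 3 (0.48 and 0.49, edgeR adjusted p = 0.0818 and 0.0685). CPD, the carboxypeptidase of the Golgi, fell to 111.8 ± 8.28 CPM in shACSS2, against 150.4 ± 0.987 CPM in NS (log2 fold change −0.43, standard error 0.0932, edgeR adjusted p = 0.00627). PCSK4 had a log2 fold change of −0.72 (standard error 0.196, edgeR adjusted p = 0.0203), and its call ended without NS replicate 1 or NS replicate 3 (−0.77 and −0.57, edgeR adjusted p = 0.0548 and 0.126). PCSK1 and PCSK2, the convertases of dense-core vesicles, were under the count filter.

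In dense-core vesicle formation and exocytosis, 1 of 27 tested genes passed the edgeR test as higher, 3 as lower and 23 did not pass, at a median of −0.04. UNC13A, which primes vesicles for fusion, had 1.84 ± 0.109 CPM in shACSS2 and 5.39 ± 0.952 CPM in NS (SD, n = 3 each; log2 fold change −1.54, standard error 0.225, edgeR adjusted p = 0.00044). AP3B2, the neuronal AP-3 subunit, had 6.11 ± 0.842 CPM in shACSS2 and 17.4 ± 1.91 CPM in NS (log2 fold change −1.51, standard error 0.155, edgeR adjusted p = 2.68e-05). TBC1D5, a RAB GTPase regulator of retromer traffic, had a log2 fold change of −0.65 (standard error 0.115, edgeR adjusted p = 0.00177). RAB27A, which docks secretory vesicles, had one of 0.45 (standard error 0.148, edgeR adjusted p = 0.0465), and its call ended with each of the 6 libraries left out, at 0.38 to 0.50. That call also ended with the replicate block (0.45, edgeR adjusted p = 0.0564), with library totals (0.38, edgeR adjusted p = 0.0986), without a count filter (0.45, edgeR adjusted p = 0.0749) and in DESeq2 (0.46, adjusted p = 0.0522).

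In the vesicle membrane list, 1 of 18 tested genes passed the edgeR test as higher, 2 as lower and 15 did not pass, at a median of −0.04. Besides SYP, the synaptic vesicle phosphoprotein SYN1 fell, with 1.58 ± 0.301 CPM in shACSS2 and 2.87 ± 0.0273 CPM in NS (SD, n = 3 each; log2 fold change −0.85, standard error 0.261, edgeR adjusted p = 0.0348). Its call ended without NS replicate 1 (−0.85), NS replicate 2 (−0.86), NS replicate 3 (−0.86), shACSS2 replicate 1 (−0.73) or shACSS2 replicate 2 (−0.83), at edgeR adjusted p from 0.0646 to 0.108. VAMP3, the widely expressed relative of synaptobrevin, had 91.4 ± 7.57 CPM in shACSS2 and 66.6 ± 4.15 CPM in NS (log2 fold change 0.46, standard error 0.1, edgeR adjusted p = 0.00669), a call that ended without NS replicate 1 (0.40, edgeR adjusted p = 0.0655). The relatives of SYP in the list were not past the edgeR test, with log2 fold changes of −0.09 for SYPL1 (edgeR adjusted p = 0.567), 0.29 for SYNGR1 (edgeR adjusted p = 0.0549), 0.29 for SYNGR2 (edgeR adjusted p = 0.0612) and −0.28 for SYNGR3 (edgeR adjusted p = 0.262), and SYNPR had 0 counts. The levels of SYNGR1 and SYNGR2 did not overlap between the groups and were higher in shACSS2. DESeq2 called 3 genes of the list higher and 2 lower.

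In the SNARE and release machinery, 0 of 15 tested genes passed the edgeR test as higher, 3 as lower and 12 did not pass, at a median of −0.22. At an unadjusted p under 0.05 in edgeR 1 gene was higher, and DESeq2 and limma voom called 0 higher. For 15 genes, 0 higher calls are near the 7.48% of all genes called higher and are no result about the list. Lower calls made up 9.64% of all genes. CPLX1, a complexin that clamps the fusion complex, had 15.3 ± 2.05 CPM in shACSS2 and 27.3 ± 0.194 CPM in NS (SD, n = 3 each; log2 fold change −0.84, standard error 0.124, edgeR adjusted p = 0.000511). NSF, the ATPase that takes SNARE complexes apart, had 44.9 ± 3.68 CPM in shACSS2 and 68.6 ± 3.31 CPM in NS (log2 fold change −0.61, standard error 0.102, edgeR adjusted p = 0.00116).

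The list of neuropeptide and hormone precursors also held GNAS, NUCB1 and SCGN, so it is not one of vesicle cargo only. On it 2 of 15 tested genes passed the edgeR test as higher, 0 as lower and 13 did not pass, at a median of 0.30. At an unadjusted p under 0.05 in edgeR 7 were higher and 1 lower, and DESeq2 and limma voom called 0 lower. For 15 genes, 0 lower calls are near the 9.64% of all genes called lower and are no result about the list. Higher calls made up 7.48% of all genes. Of the 33 genes on the list 8 had 0 counts in all libraries, NPY, CARTPT, PENK and CALCA among them. NMU, neuromedin U, had a log2 fold change of 0.48 (standard error 0.132, edgeR adjusted p = 0.0209), and its call was lost when NS replicate 1, NS replicate 3 or shACSS2 replicate 3 was left out (0.40, 0.44 and 0.44, edgeR adjusted p = 0.128, 0.0982 and 0.0698). ADM, adrenomedullin, had one of 0.47 (standard error 0.128, edgeR adjusted p = 0.021), and its call ended without NS replicate 1, NS replicate 2, shACSS2 replicate 2 or shACSS2 replicate 3 (0.43, 0.44, 0.38 and 0.43, edgeR adjusted p from 0.0664 to 0.114).

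**Figure D3:**
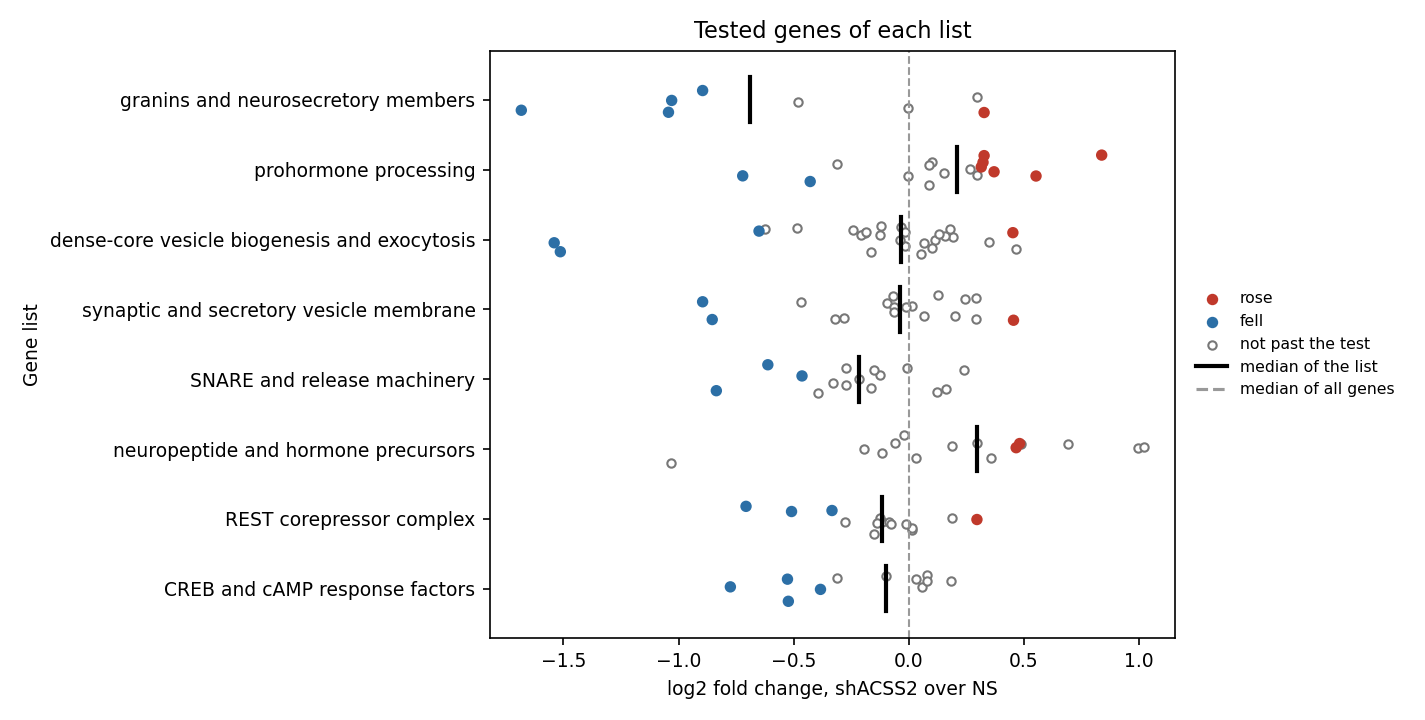
Log2 fold change of shACSS2 over NS for the tested genes of each list, with filled points for genes that rose or fell at an edgeR adjusted p under 0.05, a bar at the list's median and a dashed line at the median of all genes. The members' median lies at −0.69, and those of the other lists between −0.22 and 0.30.

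REST, the repressor that silences many neuronal and neurosecretory genes outside neurons, did not differ beyond the spread of the libraries. It had 37.9 ± 4.70 CPM in shACSS2 and 40.1 ± 1.44 CPM in NS (SD, n = 3 each; log2 fold change −0.08, standard error 0.112, edgeR adjusted p = 0.644). Of the 15 genes of REST and its corepressors, 1 passed the edgeR test as higher, 3 as lower and 11 did not pass. CTDSPL, a phosphatase known to act with REST, had a log2 fold change of −0.71 (standard error 0.108, edgeR adjusted p = 0.000618), and the scaffold RCOR1 one of −0.51 (standard error 0.104, edgeR adjusted p = 0.00422). SUZ12, a Polycomb subunit, stood at −0.33 (standard error 0.0972, edgeR adjusted p = 0.0283). Its call ended without NS replicate 1 (−0.32), NS replicate 3 (−0.30), shACSS2 replicate 2 (−0.29) or shACSS2 replicate 3 (−0.31), at edgeR adjusted p from 0.0977 to 0.127. HDAC1 stood at 0.30 (standard error 0.0918, edgeR adjusted p = 0.0369). Its call ended with library totals (0.22, edgeR adjusted p = 0.0814) and without NS replicate 1 (0.30), NS replicate 3 (0.24), shACSS2 replicate 2 (0.32) or shACSS2 replicate 3 (0.32), at edgeR adjusted p from 0.0723 to 0.167.

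Of 11 genes of the CREB and cAMP response, which are factors, their coactivators and catalytic subunits of protein kinase A, 0 rose, 4 fell and 7 did not pass the edgeR test. At an unadjusted p under 0.05 in edgeR 0 genes were higher, and DESeq2 and limma voom called 0 higher. For 11 genes, 0 higher calls are near the 7.48% of all genes called higher and are no result about the list. Lower calls made up 9.64% of all genes. ATF2, a factor of that family, fell to 34.9 ± 2.47 CPM in shACSS2, against 59.7 ± 3.28 CPM in NS (SD, n = 3 each; log2 fold change −0.77, standard error 0.103, edgeR adjusted p = 0.000223). EP300, a histone acetyltransferase and coactivator of CREB, fell to 104.9 ± 1.07 CPM in shACSS2, against 150.7 ± 13.3 CPM in NS (log2 fold change −0.52, standard error 0.0958, edgeR adjusted p = 0.00224). Its relative CREBBP stood at −0.38 (standard error 0.107, edgeR adjusted p = 0.0234), a call that ended without NS replicate 1 (−0.35, edgeR adjusted p = 0.12), NS replicate 2 (−0.37, edgeR adjusted p = 0.0591) or shACSS2 replicate 2 (−0.39, edgeR adjusted p = 0.0502). The coactivator CRTC1 stood at −0.53 (standard error 0.139, edgeR adjusted p = 0.0177), with its call lost without NS replicate 1 (−0.52, edgeR adjusted p = 0.0794) or NS replicate 3 (−0.52, edgeR adjusted p = 0.0698). CREB1 itself had a log2 fold change of −0.10 (standard error 0.137, edgeR adjusted p = 0.656). No relation between these factors and the members was tested.

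Among the other list genes that fell, 6 of 16 held ATGCTCA or TGCTCAA in their 3′ UTR: CPD, AP3B2, NSF, CTDSPL, RCOR1 and ATF2. As the letters were picked from these same fold changes, this count is fixed in part by that choice and is no result about the lists. The share was 43.9% over all fallen genes and 17.95% over all tested genes with such a UTR. List genes not past the test held the letters too, RAB3B, SYT9 and CYB561 among them. The first match in 4 of the 6 fallen genes is shown to let the letters be seen in place, with the match in capitals.
CPD: gcttgcaATGCTCAttgaagg
AP3B2: ggattgcTGCTCAAatccagg
NSF: aagagatATGCTCAttattac
ATF2: ttttctgTGCTCAAtgtgtaa

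The genes whose levels over the 6 libraries were most like those of the abundant members were found by Pearson correlation of log2 CPM among the 11895 tested genes that averaged 5 CPM or more. For CPE these were TFPI (r = 0.997), VAMP3 (r = 0.996) and RRM1 (r = 0.996). For PCSK1N these were GLIPR2 (r = 0.989), STOML1 (r = 0.985) and C11orf80 (r = 0.975). All genes share the same 6 libraries in 2 groups, so these values are a description.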

How the data were processed

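The authors deposited 1 table of raw read counts per gene, whole numbers that were not normalised, with 3 shACSS2 and 3 NS columns. Per the submitters' processing notes fastp and HISAT2 2.0.5 were used, featureCounts is listed as 1.5.0-p3, DESeq2 as 4.3.1, and the build as hg19. For strand setting, annotation release and multiply matching reads, the sources used here say nothing. All 58735 identifiers were found in GENCODE v29 (GRCh38), with 27 names that differ, of which 0 are members. Positions, exon lengths (merged exons of all transcripts), 3′ UTRs and GC content come from that release.

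Counts were tested with edgeR 4.0.16 in R 4.3.3: default expression filter by group, TMM factors, robust quasi-likelihood F test, group as the only term, Benjamini-Hochberg adjustment over all 16210 genes at 0.05. A gene is said to rise or fall where its adjusted p is under 0.05. Standard errors were obtained from the log2 fold change and F (absolute value divided by the root of F), and 95% intervals from them under a normal approximation. CPM values are counts over the library total times its TMM factor. Floors of 3 counts cover counting error only, since reads are not independent molecules. Chi-square per degree of freedom between libraries of a group was 4.28 to 17.3, over genes with at least 20 counts, so no pair agreed within counting noise, as 1 library deposited again would. This says nothing of whether the libraries are separate cultures.

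The 9 members and all lists were chosen with earlier results of these data known, and genes were named by a rule: every member, ACSS2, REST, up to 4 called genes of each list that changed most and averaged 1 CPM or more, and the 3 genes most like each of the 2 most abundant members. PCSK1, PCSK2, SYPL1, SYNGR1, SYNGR2, SYNGR3 and CREB1 were added after their values were seen. Some genes that the rule names are not reported here. Alternatives were RLE, upper quartile and library-total scaling, 2 other count filters, DESeq2 1.42.0, voom of limma 3.58.1, a replicate block, each library left out, and a GC correction (loess offset, span 0.3) added after the data were seen. Figures used matplotlib 3.10.9 in Python 3.11.15.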

Additional observations from a re-analysis of the deposited data

How the results depend on the processing

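The calls of CHGA, SCG3 and SYP held under the other scalings, filters and tools, the GC correction and each library left out, and all 5 called members kept their direction. With the filter of at least 1 CPM in 3 libraries, CHGA and CHGB passed only through NS, where they were higher. The calls of CHGB and CPE ended with some libraries left out, and that of CPE with library totals. With library totals CPE stood at 0.25 and 734 genes were called higher, and with the GC correction 4532 genes were called, 2266 of them higher. Leaving out 1 library gave 1018 to 3931 called genes, 310 to 1837 higher and 708 to 2094 lower, 3 to 5 called members, 11 to 34 called list genes, and log2 fold changes of −1.23 to −0.91 for CHGB and 0.27 to 0.37 for CPE. The cause was not tested. With the replicate block 2923 genes and 5 members were called, 4 of them lower, and 26 list genes; members stood at −1.71 (CHGA), −1.03 (CHGB), −1.05 (SCG3), −0.91 (SYP), 0.33 (CPE), 0.29 (SCG5), −0.47 (VGF) and −0.01 (PCSK1N), and ACSS2 at −1.95. The replicate numbers were not taken to pair the libraries: deviations of same-numbered libraries correlated at −0.0428, −0.0664 and 0.112. Of 360 values of 24 list genes under the alternatives, 317 stayed on their side of the threshold, 43 were no longer called and 0 reversed. Depth limits SCG2, CHGA and CHGB most.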
